A study of Schmidtea mediterranea with 35 samples.

Results

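The 200 most abundant transcripts of control neoblasts were followed through RNAi knockdown of zfp1 or p53 in the planarian flatworm Schmidtea mediterranea. They are the transcripts with the highest median RPKM (a read count divided by the length of the transcript and by a library size) over the 11 control libraries, out of 25462 transcripts in the deposited table. Control levels therefore chose the members, and their high level is a description and not a finding. The animals belonged to CIW4, a line grown from a single clone, and ate bacteria expressing double-stranded RNA in 3 feedings. X1 cells, the Hoechst-stained sorting gate of cycling neoblasts, were collected on days 6, 9 and 13, and their polyA RNA was sequenced. RNAi against unc22, described in the labels as non-targeting, served as the control. There were 4 unc22, 4 zfp1 and 4 p53 libraries on each day, except that the unc22 group of day 13 had 3. All 9 groups share the clonal line, the feeding with bacteria and the sorting gate. The labels do not say whether replicates were separate sets of animals, so the p-values refer to the variation among these libraries and it may be technical.

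Neoblasts are the only dividing somatic cells of planarians and the source of every new differentiated cell. In this animal zfp-1 encodes a zinc finger protein needed by the neoblasts that will form epidermis, and p53 is a homolog of the vertebrate tumour suppressor that acts in stem cells and their early progeny. The transcripts at the top of a growing cell's polyA RNA usually include those of ribosomal proteins, translation factors and other housekeeping proteins. The table pairs none of its identifiers with a gene name, so no role is given to any member here, and the levels of zfp1 and p53, the markers of X1 cells and those of other cell types were not analysed. In sorted bulk RNA, fewer cells of a type and less RNA per cell cannot be told apart.

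Whole reads recovered from the deposited values summed to between 4391559 and 26115474 per library, with a median of 11272890. Each member had at least 214 reads in every library, for which counting alone gives an error of 6.84%, and the median over members of the lowest count was 3738 reads. All 200 members passed the filter on low values. 3 libraries stood apart from their groups, namely replicate 1 of zfp1 RNAi at day 6, replicate 5 of zfp1 RNAi at day 13 and replicate 5 of unc22 at day 13. They listed 4945, 5021 and 4546 transcripts at 0. In them 165, 143 and 175 of the 200 members were above every other library of the group, against 31.7%, 38.7% and 40.9% of the 19206 transcripts tested. The library size used to scale their RPKM was 0.812, 0.674 and 0.617 times their total reads, whereas this ratio averaged 1.0 (geometric mean) over the 35 libraries and reached 1.207. Replicate 4 of p53 RNAi at day 6, which is not among the 3, had 158 members above every other library of its group, against 26.4% of the tested transcripts. The part of these libraries in the results below was not tested. Many of the counts and medians they move, though not all, are also given without the 3.

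A single transcript, SMED30032887, led the neoblast transcriptome by a wide margin. It is 905 bases long and had a control median of 172600 RPKM, against 10650 RPKM for the transcript ranked next, SMED30013735. In the day 6 controls it was at 173000, 134000, 154000 and 175000 RPKM. In the day 9 controls it was at 171000, 181000, 170000 and 158000 RPKM, and in those of day 13 at 228000, 223000 and 492000 RPKM. The 3 day 13 controls were above all 8 earlier ones, and the highest of them is 1 of the libraries that stood apart.

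After zfp1 RNAi SMED30032887 was at 343000, 146000, 155000 and 193000 RPKM on day 6, at 159000, 170000, 153000 and 152000 RPKM on day 9, and at 192000, 192000, 241000 and 529000 RPKM on day 13. After p53 RNAi it was at 130000, 132000, 134000 and 233000 RPKM on day 6, at 176000, 245000, 145000 and 143000 RPKM on day 9, and at 192000, 155000, 180000 and 170000 RPKM on day 13. The 4 p53 libraries of day 13 were all below the 3 controls of that day. Its log2 difference from control there was -0.75 ± 0.37 (SE), which missed the threshold of limma with Benjamini-Hochberg adjustment over all tested transcripts (adjusted p = 0.16). None of the other comparisons called this transcript either, and its difference between days 13 and 6 in the controls was 0.89 ± 0.37 (SE; adjusted p = 0.22, limma).

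**Figure D1:**
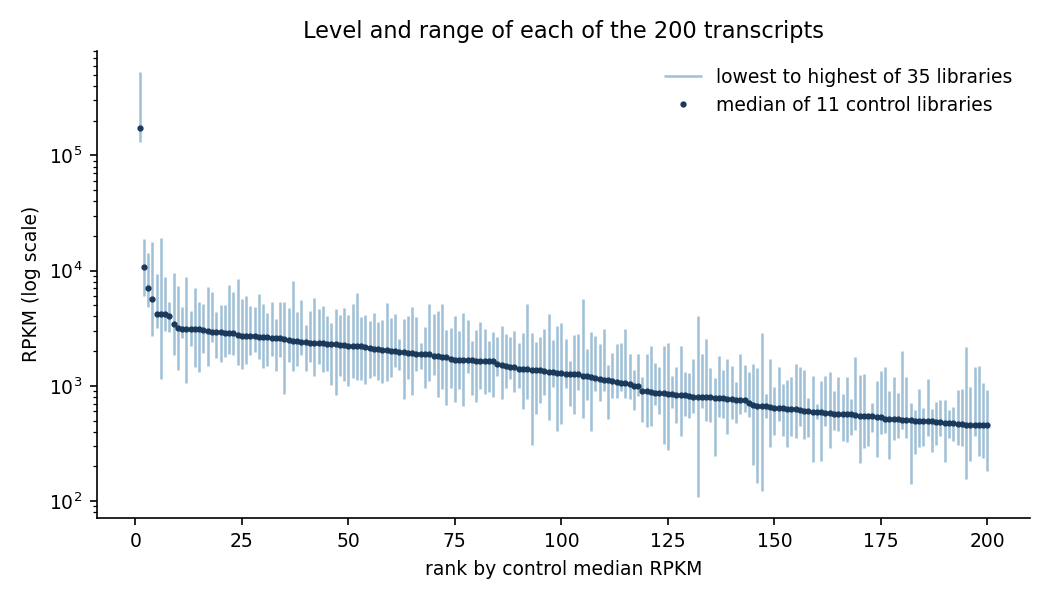
Level of each of the 200 transcripts in RPKM (log scale) against its rank by control median. Points are medians of the 11 control libraries and lines run from the lowest to the highest of all 35 libraries. SMED30032887 stands alone above 100000 RPKM, and the curve then declines slowly to 455 RPKM at rank 200.

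Below the leading transcript the levels declined slowly. 116 members had a control median between 1000 and 100000 RPKM, 66 between 500 and 1000 RPKM, and 17 below 500 RPKM. Ranks 3 to 10 were SMED30019803, SMED30016196, SMED30026225, SMED30002931, SMED30029899, SMED30027378, SMED30004484 and SMED30016163. At the lower edge of the list SMED30003997, SMED30005911 and SMED30013300 were the last transcripts inside, and SMED30012993, SMED30009907 and SMED30013023 the first outside. Their control medians ran from 457 RPKM for the first of these 6 to 449 RPKM for the last, so that the edge of the list separates transcripts of nearly the same level. The members were short. Their median length was 774.5 bases, with quartiles of 572 and 1296 bases, whereas the 19006 other tested transcripts had a median of 1080 bases. RPKM divides by length, and a shorter transcript needs fewer reads for a given RPKM.

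The members made up 0.785% of all transcripts and held most of the RPKM in every library. In the controls the leading transcript alone held 22.1% of the summed RPKM on average, the first 10 held 27.8%, the first 50 held 40.6%, the first 100 held 50.7% and all 200 held 59.5%. By library the share of the members ran from 52.6% in replicate 4 of p53 RNAi at day 9 to 67.9% in replicate 5 of unc22 at day 13. Their share of the recovered reads, which does not divide by length, ran from 41.1% to 59.9%.

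In the unc22 controls the share of RPKM was 57.6% ± 1.23 (SD, n = 4) on day 6, 58.5% ± 0.657 (SD, n = 4) on day 9 and 63.4% ± 3.96 (SD, n = 3) on day 13. After zfp1 RNAi it was 59.0% ± 5.63, 57.7% ± 0.572 and 61.9% ± 3.44 on these days (SD, n = 4 each). After p53 RNAi it was 57.0% ± 3.11, 56.4% ± 3.42 and 58.7% ± 1.01 (SD, n = 4 each). The libraries that stood apart held 67.9% in the unc22 group of day 13, 67.4% in the zfp1 group of day 6 and 67.0% in the zfp1 group of day 13, above every other library.

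**Figure D2:**
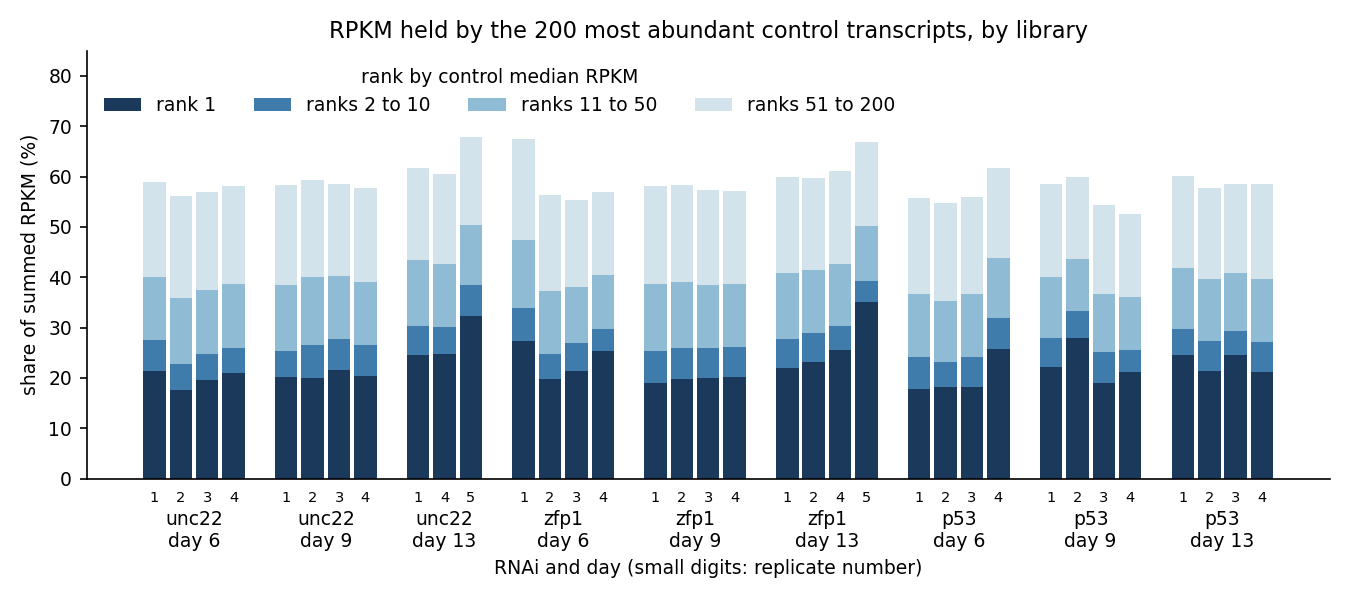
Share of summed RPKM (%) in each of the 35 libraries, stacked by rank of the transcripts in the controls, with libraries grouped by RNAi and day. The leading transcript took between 17.7% and 35.0% of a library and ranks 51 to 200 between 16.2% and 20.3%.

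The controls chose the members, so a comparison of shares with controls, or between control days, is not independent of that choice. None of the 12 comparisons of the share passed adjustment. The largest difference was that between the control days, where the share was 5.83 percentage points higher on day 13 than on day 6 and the libraries did not overlap (exact two-sided permutation test, p = 0.0571, adjusted p = 0.343 over 12 comparisons). With 4 libraries against 3, 0.0571 is the smallest p this test can give. Without the library that stood apart the difference was 3.57 points. At day 13 the share after p53 RNAi differed from that of the controls by -4.68 points, again without overlap and at the same smallest p (exact permutation test, adjusted p = 0.343), and the difference was -2.42 points without the control that stood apart. With members ranked on the controls of the other days it was -4.59 points. The leading transcript held most or all of both differences. Its own share was 19.9% ± 1.69 (SD, n = 4) on day 6 and 27.2% ± 4.43 (SD, n = 3) on day 13 in the controls. That difference of 7.26 points, larger than that of all members, did not pass adjustment (exact permutation test, p = 0.0571, adjusted p = 0.343). Between p53 RNAi and control at day 13 its share differed by -4.29 points, with overlap (exact permutation test, adjusted p = 0.392). Without it in the members and the total, the share differed by 2.81 and -3.37 points in these comparisons.

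With the leading transcript taken out of both the members and the total, the remaining 199 members held 43.7% ± 2.87 (SD, n = 4) of the RPKM after p53 RNAi on day 9, against 47.8% ± 0.957 (SD, n = 4) in the controls. The p53 libraries ran from 39.9% to 46.8% and the controls from 47.0% to 49.1%, so they did not overlap (exact permutation test, p = 0.0286, the smallest possible, adjusted p = 0.171). On day 13 these 199 members held 48.3% ± 0.733 (SD, n = 4) after zfp1 RNAi and 46.4% ± 1.0 (SD, n = 4) after p53 RNAi, also without overlap (exact permutation test, p = 0.0286, adjusted p = 0.171).

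Members kept their place at the top in every group. Ranked by the group median, between 183 and 196 of the 200 were among the 200 most abundant transcripts of each group, and none fell below rank 1000. The lowest rank was 475, reached by SMED30026658 after p53 RNAi on day 9. No transcript from outside the list entered the first 50 of any group. Of the transcripts that entered a knockdown's first 200 from outside, SMED30026531 came from furthest down, from rank 566 in the controls to rank 200 after zfp1 RNAi on day 13. These ranks overlap with the choice of members in the controls and are a description there.

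The spread between libraries of 1 group was similar in members and other transcripts. The median SD of log2(RPKM + 1) within groups was 0.322 over the members, 0.294 over the next 800 transcripts by rank and 0.33 over all tested transcripts. Without the 3 libraries it was 0.204 over the members and 0.257 over all tested transcripts, so these libraries added more to the spread of the members. By group the median SD of the members was lowest in the day 6 controls, at 0.084 against 0.168 over all tested transcripts, and highest after zfp1 RNAi on day 6, at 0.534 against 0.435.

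**Figure D3:**
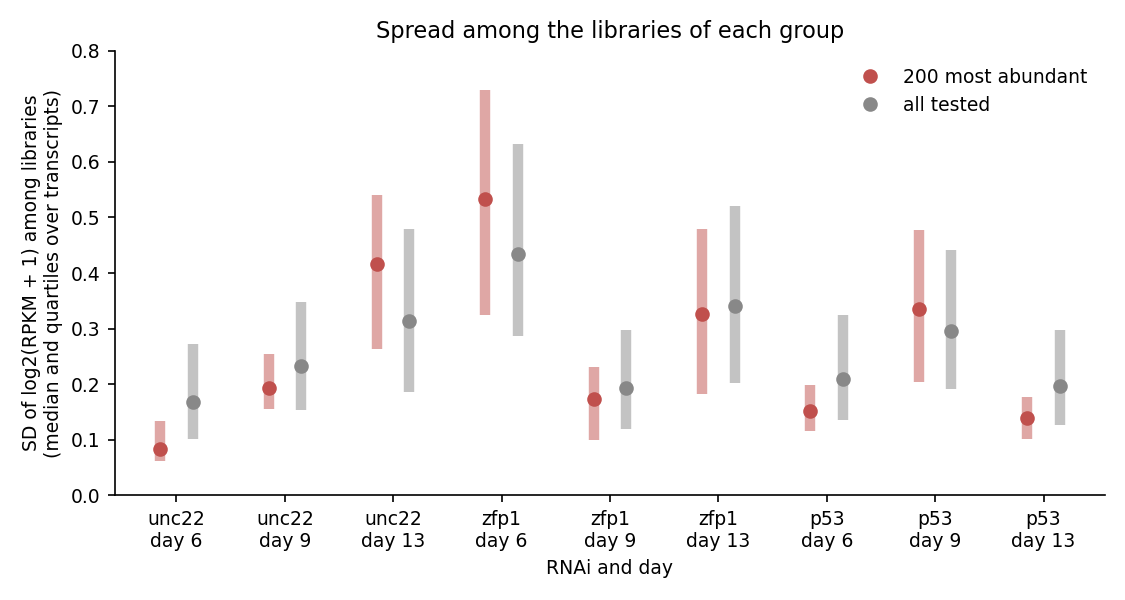
SD of log2(RPKM + 1) among the libraries of each group, as the median (point) and quartiles (bar) over the 200 members and over all tested transcripts. By the median, members spread more in the unc22 group of day 13, the zfp1 group of day 6 and the p53 group of day 9, and less in the other 6 groups.

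3 members spread far more than the rest. SMED30032663 (1794 bases, rank 132) had a within-group SD of 1.116 on the log2 scale. In the day 6 controls it was at 161, 512, 2680 and 602 RPKM, far apart within 1 group. In the day 9 controls it was at 803, 1440, 286 and 288 RPKM and in those of day 13 at 1780, 1610 and 4050 RPKM. SMED30016773 (251 bases, the shortest member) had an SD of 0.955 and SMED30002931 (361 bases, rank 6) one of 0.826. In the day 6 controls SMED30002931 was at 7760, 2760, 2870 and 2700 RPKM, and SMED30016773 at 1370, 483, 466 and 452 RPKM. Replicate 1 was high for both. After zfp1 RNAi on day 6 the values were 19200, 2670, 2200 and 1970 RPKM for SMED30002931 and 2890, 382, 302 and 178 RPKM for SMED30016773, with replicate 1, a library that stood apart, again high for both. None of the comparisons called any of these 3 transcripts.

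The most even members were SMED30034512 (SD 0.117), SMED30010227 (SD 0.135) and SMED30014560 (SD 0.137), all longer than the median member at 1486, 1557 and 1917 bases. SMED30034512 stayed between 516.4 and 692.9 RPKM over all 35 libraries. SMED30010227 and SMED30014560 are among the called members described below.

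The comparisons with control asked which abundant transcripts of neoblasts change after each knockdown, and those between knockdowns which change after 1 and not to the same extent after the other. The test was limma on log2(RPKM + 1), fitted on all tested transcripts, and a call was an adjusted p under 0.05. The controls that chose the members also enter each comparison with control. The comparisons between knockdowns and between days within a knockdown use no control library. In all, 51 of the 200 members (25.5%) were called in at least 1 of 14 comparisons and 149 in none, and 4796 of the 19206 tested transcripts (25%) were called in at least 1.

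**Figure D4:**
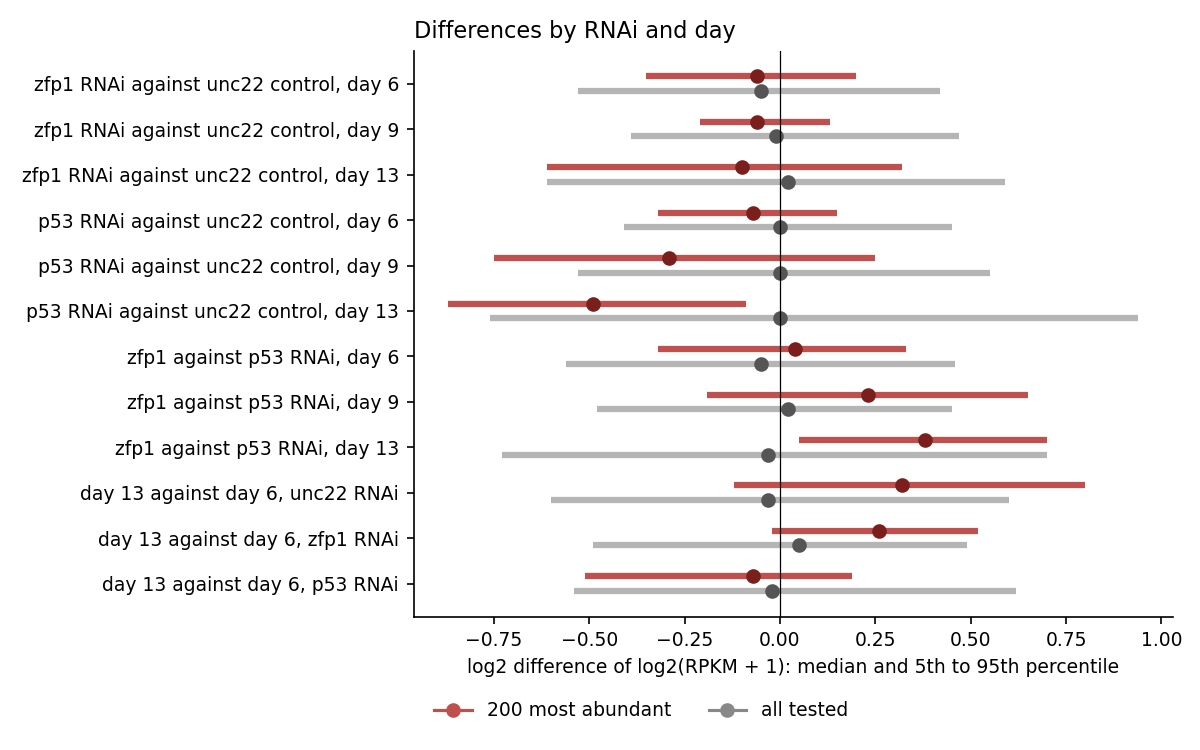
Log2 differences of the members (red) and of all tested transcripts (grey) in 12 comparisons, as the median (point) and the 5th to 95th percentile (line). The members lie to the left of all tested transcripts after p53 RNAi on days 9 and 13, with medians of -0.29 and -0.49, and to the right for zfp1 against p53 RNAi on days 9 and 13, with medians of 0.23 and 0.38.

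Few of the abundant transcripts were called against control after zfp1 RNAi. On day 6, 1 member was called, lower, where 1.3% of all tested transcripts were called in either direction. On day 9 limma called 0 members (3.23% of all tested), and limma-voom on the recovered reads called 0. At an unadjusted limma p under 0.05 there were 2 members (8.41% of all tested). On day 13, 3 members were called higher and 1 lower (4.43% of all tested in either direction). The median log2 difference of the members was -0.06, -0.06 and -0.10 on the 3 days, against -0.05, -0.01 and 0.02 over all tested transcripts. On day 6 the overlap depended on the zfp1 library that stood apart, since 6 members had every zfp1 library below every control (2.53% of all tested) and 80 had without the 3 libraries (6.28% of all tested). The median without them was -0.25 against 0.0 over all tested transcripts, 170 of the 200 were negative, and 8 were called, all lower, or 4.0% against 1.74% of all tested. With total reads as library size and without the 3 libraries, 38 members were without overlap and lower (3.86% of all tested), with a median of -0.20 against 0.04. With the replicate number as a block over all 35 libraries, which is not a paired fit of day 13, 5 members were higher and 2 lower on that day. All 4 calls were among them. Leaving out replicate 1 or 4 of the controls, or replicate 1 or 2 of zfp1 RNAi, gave a count of 1 on day 13, and leaving out any 1 of 14 other libraries gave 2. The 1 without replicate 1 of the controls was another member, SMED30003672, called lower.

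SMED30023062 (1749 bases, rank 172) was the member called after zfp1 RNAi on day 6. In the controls of that day it was at 516, 503, 507 and 550 RPKM, and after zfp1 RNAi at 299, 467, 331 and 399 RPKM, without overlap. It was lower by a log2 difference of -0.49 ± 0.12 (SE; adjusted p = 0.033, limma). Leaving out any 1 of 6 libraries ended the call, and it was lost without the 3 libraries, in a fit of the compared groups alone, and when scaled by all other transcripts or by total reads. After p53 RNAi it was at 488, 330, 329 and 350 RPKM on day 9 (-0.57 ± 0.12, adjusted p = 0.0037, limma) and at 369, 394, 358 and 429 RPKM on day 13 (-0.51 ± 0.13, adjusted p = 0.0073, limma). Both p53 calls were lost in a fit of the compared groups alone and with total reads as library size. That of day 13 was also lost when scaled by all other transcripts. The controls of days 9 and 13 held between 536 and 560 RPKM, above every p53 library of their day.

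On day 13 of zfp1 RNAi the members called higher were SMED30012212, SMED30002262 and SMED30014560. SMED30012212 (891 bases, rank 169) was at 1070, 1040, 1330 and 1760 RPKM, against 527, 440 and 1110 RPKM in the controls, where the highest value comes from the library that stood apart and overlaps the zfp1 range. Its log2 difference was 1.00 ± 0.25 (SE; adjusted p = 0.012, limma). Leaving out replicate 1 or replicate 4 of the controls ended this call. SMED30002262 (2265 bases, rank 186) was at 816, 1140, 587 and 757 RPKM against 498, 528 and 500 RPKM, higher by 0.66 ± 0.18 (adjusted p = 0.024, limma), and this call was lost without the 3 libraries. SMED30014560 was higher by 0.42 ± 0.13 (adjusted p = 0.047, limma), a call that 26 of the 35 fits leaving out 1 library ended. SMED30012869 was the member called lower, at 708, 705, 588 and 597 RPKM against 969, 904 and 1290 RPKM (-0.69 ± 0.20, adjusted p = 0.045, limma). This call ended in 6 of the 10 other settings, the one without the 3 libraries among them, and in 19 of the 35 fits leaving out 1 library.

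SMED30002262 was also the 1 member called higher after p53 RNAi on day 9. The p53 libraries were at 728, 986, 1020 and 832 RPKM and the controls at 370, 483, 444 and 443 RPKM, far from overlapping. The log2 difference was 1.02 ± 0.16 (SE; adjusted p = 9.3e-05, limma), and the call held in all 10 alternative settings, those that left out single libraries aside, and in each of the 35 fits that left out 1 library. In the other comparisons with control it was at 0.32 ± 0.16 and 0.40 ± 0.16 after zfp1 RNAi on days 6 and 9, and at 0.35 ± 0.16 and 0.33 ± 0.18 after p53 RNAi on days 6 and 13, none of them called. The 6 knockdown groups averaged between 573.8 and 890.3 RPKM and the 3 control groups between 435.2 and 518 RPKM.

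After p53 RNAi limma called 0 members on day 6 (1.1% of all tested), and limma-voom called 0. At an unadjusted limma p under 0.05 there was 1 member (6.13% of all tested). On day 9, 1 member was higher and 2 were lower (3.91% of all tested in either direction). Besides SMED30023062 the lower one was SMED30030234 (1856 bases, rank 152), at 582, 456, 489 and 365 RPKM against 694, 774, 640 and 635 RPKM (-0.55 ± 0.14, adjusted p = 0.02, limma). Leaving out any 1 of 4 libraries ended that call. The members as a group were below control on day 9, 166 of the 200 with a negative difference and a median of -0.29, against 50.7% negative and a median of 0.0 over all tested transcripts. Without the 3 libraries, none of which is from day 9, the log2 differences stayed as they were and the smaller estimate of the spread gave 53 members called lower and 3 higher, or 26.5% lower against 5.03% of all tested and 1.5% higher against 4.4%. Leaving out replicate 1 of p53 RNAi at day 9 gave 12 lower (6.0% against 1.99% of all tested) and 1 higher. Leaving out replicate 1, 3 or 4 of zfp1 RNAi at day 6 gave 21, 5 or 4 lower, or 10.5%, 2.5% and 2.0% against 2.86%, 2.18% and 2.25% of all tested, and 1 higher.

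On day 13 of p53 RNAi the deposited RPKM of most abundant transcripts was below control, to an extent that depended on the scaling. Of the 200 members 196 were below control, and 41 were called lower and 0 higher, or 20.5% lower against 8.35% of all tested transcripts (17.3% called in either direction). For 133 members every p53 library was below every control, where 17.5% of all tested transcripts were so. The members' median log2 difference was -0.49, while that of all tested transcripts was 0.0. The 4 members not below control, named after their values were seen, were SMED30002262 (0.33 ± 0.18), SMED30012212 (0.22 ± 0.25), SMED30004124 (0.16 ± 0.21) and SMED30033785 (0.01 ± 0.14), all with adjusted p of at least 0.21 in limma. The median was below control at every depth of the list, with a log2 difference of -0.55 over ranks 2 to 10, -0.52 over ranks 11 to 50 and -0.47 over ranks 51 to 200.

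How many members were lower on day 13 depended on 1 control library and on the scaling. Without replicate 5 of unc22 at day 13, a library that stood apart, 6 members were called lower, or 3.0% against 2.97% of all tested transcripts, with a median of -0.30. Leaving out replicate 1, 2 or 3 of p53 RNAi at day 13 gave 25, 26 or 13 called lower, or 12.5%, 13.0% and 6.5% against 5.95%, 6.19% and 5.28% of all tested. Leaving out replicate 1 of zfp1 RNAi at day 6 or replicate 5 of zfp1 RNAi at day 13, which enter only through the shared spread, gave 78 or 62, or 39.0% and 31.0% against 10.5% and 11%. Without all 3 libraries 20 were lower and 2 higher, or 10% lower against 6.67% of all tested transcripts, and 17 of the 41 calls were shared. For 140 members every p53 library was then below every control left, against 23.6% of all tested transcripts. When RPKM was recomputed with the total reads as library size, an alternative chosen after seeing the data, the median of all tested transcripts moved from 0.0 to 0.29 and that of the members from -0.49 to -0.06. 6 members were then called lower and 4 higher, 3.0% lower against 2.27% of all tested, and 122 members were below control and 78 above. The libraries did not overlap for 34 lower members (5.03% of all tested) and for 11 higher ones (28.7% of all tested). Scaled by the RPKM of all other transcripts, 9 were lower and 3 higher, or 4.5% lower against 3.02%, with medians of -0.16 over the members and 0.23 over all tested. With all libraries the median of the members was thus below that of all tested transcripts under each of these scalings. The difference was between -0.49 and -0.35 on the log2 scale. Without the 3 libraries the gap was smaller, with medians of -0.30 over the members and -0.05 over all tested transcripts. With total reads as library size and without the 3, these medians were -0.06 and 0.14. The sign of a single member's change depends on the scaling. 

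Named by the size of their fall on day 13, SMED30003672 (775 bases, rank 195), SMED30016196 (822 bases, rank 4) and SMED30003997 (669 bases) led the 41. SMED30003672 was at 370, 419, 327 and 423 RPKM after p53 RNAi and at 600, 732 and 2170 RPKM in the controls. The control library that stood apart is far above the other two (-1.36 ± 0.39, adjusted p = 0.015, limma). SMED30016196 was at 4000, 5090, 3490 and 5300 RPKM against 6660, 6390 and 17600 RPKM (-1.04 ± 0.33, adjusted p = 0.028, limma). SMED30003997 was at 416, 468, 361 and 539 RPKM against 653, 618 and 1500 RPKM (-0.94 ± 0.27, adjusted p = 0.016, limma). In each of the 3 the p53 and control values did not overlap, and all 3 calls were lost without the 3 libraries.

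SMED30027407 (1351 bases, rank 138) was the 1 member of the 41 whose call held in all 10 other settings. It was at 569, 599, 526 and 582 RPKM after p53 RNAi and at 815, 811 and 1380 RPKM in the controls of day 13 (-0.77 ± 0.17, adjusted p = 0.0021, limma). Leaving out replicate 5 of those controls ended the call. SMED30010227 (1557 bases, rank 158) was at 384, 371, 361 and 376 RPKM against 584, 551 and 600 RPKM (-0.63 ± 0.12, adjusted p = 4.9e-04, limma). Its call held in every fit that left out 1 library and was lost when scaled by all other transcripts or by total reads.

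The comparison of the knockdowns with each other needs no control library, though on day 13 it shares the p53 libraries with the comparison above. On that day 16 members were higher after zfp1 than after p53 RNAi and 0 lower, or 8.0% higher against 4.7% of all tested transcripts (10.3% called in either direction). For 67 members every zfp1 library was above every p53 library, against 10.4% of all tested. The median of the members was 0.38 and 192 of 200 were positive, while the median of all tested transcripts was -0.03. Without the 3 libraries 20 were higher and 1 lower, 14 of the 16 calls among them. The median was then 0.24 against 0.02 over all tested transcripts. For 78 members every zfp1 library left was above every p53 library (13.9% of all tested). With total reads as library size 7 were higher and 1 lower, or 3.5% higher against 1.24% of all tested and 0.5% lower against 9.12%. The median was 0.07 against -0.23 over all tested transcripts, and 132 members were positive. The libraries then did not overlap for 15 higher members (3.33% of all tested) and 3 lower ones (19.5% of all tested). Leaving out replicate 2 or 3 of p53 RNAi at day 13 moved the 16 to 8 or 6 (2.16% and 2.25% of all tested). Leaving out replicate 2 or 5 of zfp1 RNAi at day 13 moved them to 32 or 7 (8.91% and 1.67% of all tested). Without replicate 1 of zfp1 RNAi at day 6 the count was 30 (6.74% of all tested). The share of all tested transcripts called higher, 4.7% with all libraries, thus fell or rose together with the count of members. On days 6 and 9 limma called 0 members between the knockdowns (0.104% and 0.12% of all tested), and limma-voom called 0 on both days. At an unadjusted limma p under 0.05 there were 4 and 29 members, where 8.62% and 7.74% of all tested transcripts were.

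4 members kept this call in all 10 other settings and in each fit that left out 1 library. SMED30026539 (503 bases, rank 100) was at 2170, 1970, 2030 and 1550 RPKM after zfp1 RNAi on day 13 and at 634, 625, 603 and 762 RPKM after p53 RNAi. Every zfp1 library was far above every p53 library, and the log2 difference was 1.55 ± 0.33 (SE; adjusted p = 0.0029, limma). The controls of that day were at 1130, 892 and 1800 RPKM, above every p53 library and overlapping the zfp1 range, and it was called against control in neither.

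SMED30014560 (1917 bases, rank 185) was at 638, 598, 566 and 514 RPKM after zfp1 RNAi on day 13 and at 321, 340, 303 and 335 RPKM after p53 RNAi, a difference of 0.83 ± 0.12 (adjusted p = 1.5e-05, limma). The controls lay between them at 412, 386 and 499 RPKM, and the member was called higher after zfp1 RNAi and lower after p53 RNAi (-0.41 ± 0.13, adjusted p = 0.024, limma), though the second sign turned to 0.03 with total reads as library size. SMED30010227 was at 620, 611, 557 and 734 RPKM after zfp1 RNAi and at or below 384 RPKM after p53 RNAi (0.75 ± 0.12, adjusted p = 5.7e-05, limma). SMED30020615 (989 bases, rank 150) was at 691, 622, 643 and 708 RPKM after zfp1 RNAi and at 413, 406, 375 and 412 RPKM after p53 RNAi (0.73 ± 0.15, adjusted p = 0.0021, limma).

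**Figure D5:**
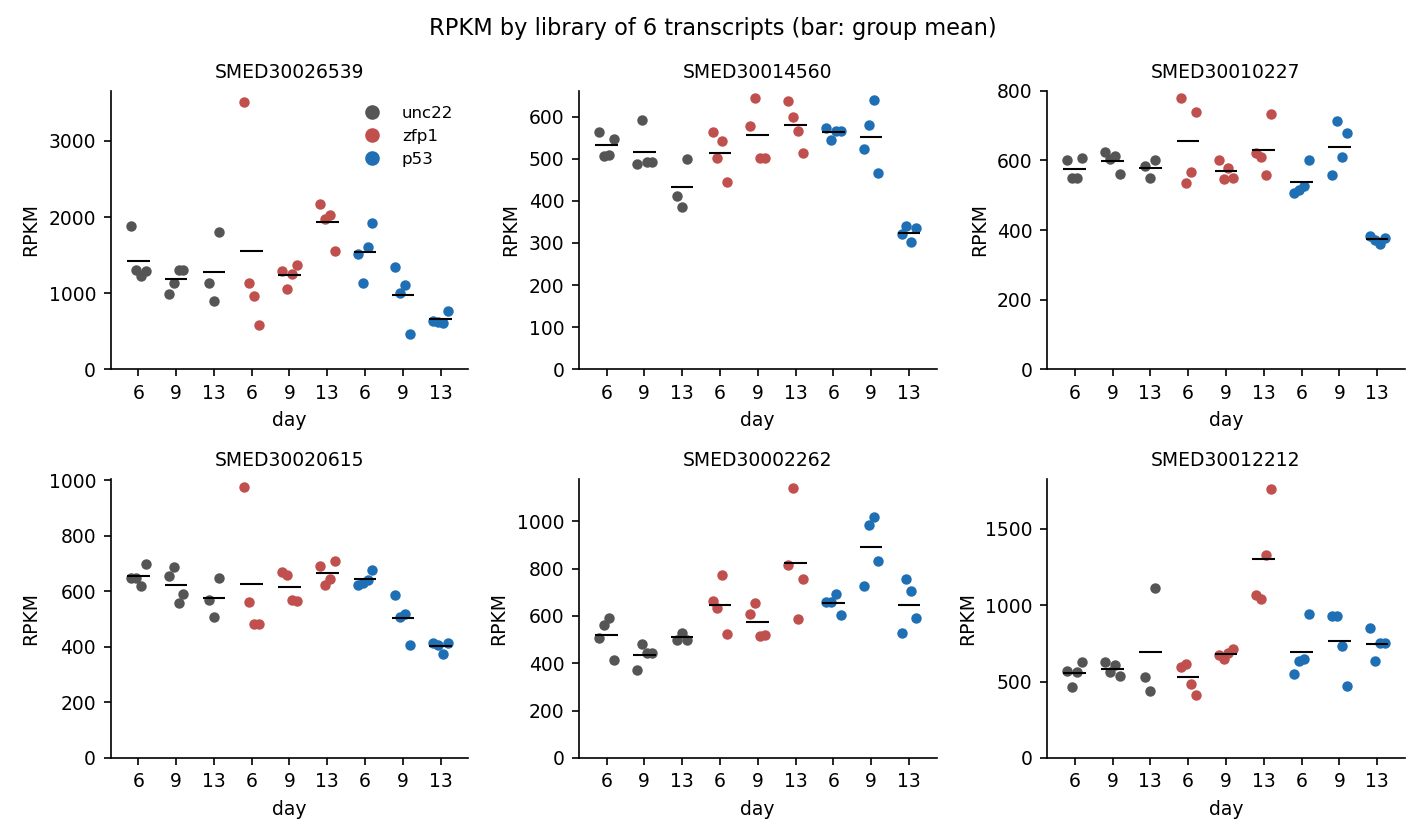
RPKM of 6 members in each library, by RNAi and day, with the group mean as a bar. SMED30026539, SMED30014560, SMED30010227 and SMED30020615 have their lowest group mean after p53 RNAi on day 13, SMED30002262 has its highest after p53 RNAi on day 9, and SMED30012212 has its highest after zfp1 RNAi on day 13.

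All 4 of these transcripts also fell between days 6 and 13 of p53 RNAi, a comparison that uses the same p53 libraries of day 13. In all 5 members were called lower and 1 higher over these days, where 5.97% of all tested transcripts were called in either direction, and all 6 calls held in all 10 other settings. Without replicate 1 of zfp1 RNAi at day 6 the count was 10, 9 of them lower, or 4.5% lower against 3.08% of all tested. SMED30026539 fell from 1510, 1140, 1610 and 1920 RPKM on day 6 to the day 13 values above, a log2 difference of -1.22 ± 0.33 (SE; adjusted p = 0.024, limma), and 6 of the 35 fits leaving out 1 library ended that call. SMED30014560 fell from 572, 544, 567 and 567 RPKM (-0.79 ± 0.12, adjusted p = 3.4e-05, limma). SMED30020615 fell from 624, 629, 641 and 676 RPKM (-0.68 ± 0.15, adjusted p = 0.0048, limma), with the day 9 libraries between at 587, 507, 518 and 407 RPKM. SMED30010227 fell from 507, 516, 527 and 601 RPKM (-0.52 ± 0.12, adjusted p = 0.0042, limma) but was at 558, 714, 610 and 678 RPKM on day 9.

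The other falling member was SMED30012822 (1191 bases, rank 129), from 781, 887, 816 and 905 RPKM to 606, 555, 551 and 611 RPKM (-0.54 ± 0.14, adjusted p = 0.018, limma). SMED30004124 (1130 bases, rank 133) rose from 754, 640, 773 and 892 RPKM on day 6 to 1210, 1260, 1140 and 1580 RPKM on day 13 (0.76 ± 0.20, adjusted p = 0.017, limma). In the controls of day 13 it was at 913, 893 and 1890 RPKM, and it was not called against control. Across the list the days of p53 RNAi differed little, with a median of -0.07 against -0.02 over all tested transcripts.

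In the controls and after zfp1 RNAi the deposited RPKM of the members was instead mostly above its day 6 level on day 13. With total reads as library size this turned in the controls and shrank after zfp1 RNAi. In the controls 169 of 200 were positive with a median of 0.32, against -0.03 over all tested transcripts, and 4 were called higher (1.71% of all tested called in either direction). For 83 members every day 13 control was above every day 6 control, against 11.1% of all tested transcripts. The controls are the libraries that chose the members, so this is a description. The largest of these rises were SMED30003997, from 401, 338, 340 and 375 RPKM to 653, 618 and 1500 RPKM (1.22 ± 0.27, adjusted p = 0.015, limma), and SMED30018637, from 2730, 2070, 2180 and 2420 RPKM to 4450, 4190 and 7130 RPKM (1.13 ± 0.29, adjusted p = 0.035, limma). Without the 3 libraries none of the 4 calls was left, 1 other member was higher and 1 lower, and the median was 0.10. Leaving out replicate 5 of the day 13 controls alone gave a count of 0 (0.213% of all tested higher). Replicate 1 or 4 of these controls gave 7 or 8, or 3.5% and 4.0% higher against 1.3% and 1.45% of all tested. Each day 6 control gave 1 or 2, against between 0.474% and 0.745% of all tested. Replicate 1 of zfp1 RNAi at day 6, replicate 5 of zfp1 RNAi at day 13 and replicate 4 of p53 RNAi at day 9 are not compared here. Left out in turn, they gave 8, 9 and 9, or 4.0%, 4.5% and 4.5% higher against 1.99%, 1.92% and 1.71% of all tested. With the replicate block 0 were higher and 3 lower, and with total reads as library size the median turned to -0.09 while that of all tested transcripts was -0.30. Under that scaling 82 members were positive and 118 negative, 2 were called higher and 8 lower, and the libraries did not overlap for 25 higher members (2.86% of all tested) and 46 lower ones (25.5% of all tested).

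After zfp1 RNAi 185 of 200 members were positive between days 6 and 13, with a median of 0.26 against 0.05 over all tested transcripts, and 2 were called higher (1.31% of all tested called in either direction). SMED30012212 rose from 597, 614, 483 and 415 RPKM on day 6 through 675, 645, 688 and 711 RPKM on day 9 to at least 1040 RPKM in each library of day 13 (1.29 ± 0.23, adjusted p = 0.0016, limma). No fit that left out 1 library ended its call. SMED30035193 (2392 bases, rank 11) rose from 2760, 2930, 2970 and 3640 RPKM to 4410, 4320, 4520 and 4600 RPKM (0.54 ± 0.13, adjusted p = 0.027, limma), a call lost when scaled by all other transcripts or by total reads. For 8 members every day 13 library was above every day 6 library (2.07% of all tested). Without the 3 libraries this held for 93 members (10.5% of all tested), and the median was 0.34 against 0.0. Then 15 members were called higher and 0 lower, or 7.5% higher against 1.54% of all tested. With total reads as library size and all libraries, 128 members were positive, with a median of 0.04 against -0.11. The libraries then did not overlap for 1 higher member (0.755% of all tested) and 1 lower one (3.39% of all tested). With total reads as library size and without the 3 libraries, 25 members were higher without overlap (3.47% of all tested) and 14 lower (20.8% of all tested). Without replicate 1 of day 6 alone 33 members were higher, or 16.5% against 2.1% of all tested. Without replicate 2 or 3 of day 6 or replicate 1, 4 or 5 of day 13 only 1 was. That is 0.5%, against between 0.323% and 0.859% of all tested.

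The change of a knockdown's effect between days 6 and 13 was tested as an interaction, and limma called 0 members for either gene. Of all tested transcripts 0.24% were called for zfp1 and 1.96% for p53. At an unadjusted limma p under 0.05 there were 8 members for zfp1 and 35 for p53, where 7.2% and 14.5% of all tested transcripts were. All 35 were more negative on day 13, and limma-voom called 0 members in both. The members' median of this difference was -0.40 for p53 and -0.07 for zfp1, against 0.01 and 0.06 over all tested transcripts. The zfp1 median changed sign with the libraries that stood apart. It was 0.20 against -0.01 over all tested transcripts without the 3 libraries. Without replicate 5 of unc22 at day 13 alone it was 0.13 against 0.03.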

How the data were processed

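X1 cells of 35 libraries were assigned to 9 groups of RNAi and day from the labels. The authors deposited 1 table of RPKM values. Per the submitters' processing notes CASAVA 1.8.2, Bowtie and edgeR were used, with no role stated, and strandedness is not given in the sources used here. Every value divided by the sample's unit was whole within 0.0001 reads (100.0% of values), which gave reads and total reads per library. Intervals from reads cover counting error only.

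Members, lists and tests were chosen with earlier results of these data known. The gene lists and markers could not be applied, since identifiers carry no names. limma 3.58.1 in R 4.3.3, with a trend, was fitted to log2(RPKM + 1) with 9 group means on 19206 transcripts of at least 1 RPKM in at least 3 libraries, which understates changes of low transcripts. Calls had a Benjamini-Hochberg adjusted p under 0.05. Shares were compared by exact two-sided permutation tests in scipy 1.17.1 (Python 3.11.15, numpy 2.4.6, matplotlib 3.10.9). The scripts were tested on simulated data.

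Named members were ranks 1 to 10, those with the 3 largest and 3 smallest spreads, 3 on each side of the edge, and, per comparison, the 2 largest called rises and falls without overlap (3 for p53 RNAi against control and for zfp1 against p53 RNAi at day 13). Others, such as those whose calls held in every setting, were added after their values were seen. In zfp1 RNAi against control the deviations of same-numbered libraries correlated at 0.52, 0.18 and 0.58 on day 13. The last of these is between libraries that both stood apart. On day 9 they correlated at 0.03, 0.61, 0.28 and 0.34. These correlations come from the values alone and do not settle whether replicate numbers pair libraries.

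Alternatives were other pseudocounts (0.1 and 5 RPKM), no filter, median-ratio scaling, scaling by all other transcripts, the replicate block, the compared groups alone, limma-voom, other member rules, and leaving out the 3 libraries or each library. RPKM with total reads as library size was added after seeing the data.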

Additional observations from a re-analysis of the deposited data

Results flagged for a closer look

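In groups of 4 libraries, 13 of 96 sets of values, the shares and the 10 most abundant members among them, had a highest or lowest library that stood far from the others. For a single set chance alone gives about 1 in 20. The 96 sets come from the same libraries and are not independent, so their count cannot be held against that rate. No explanation of them was tested. For the share of RPKM in the members, replicate 1 of zfp1 RNAi at day 6 had 67.4% against 55.4% to 56.9% in the other 3 libraries, and replicate 4 of p53 RNAi at day 6 had 61.7% against 54.8% to 56.0%. That p53 library also gave 25.7% of its RPKM to SMED30032887, against 17.9% to 18.3%, with 233000 RPKM against 130000 to 134000 RPKM.

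Replicate 5 of zfp1 RNAi at day 13 was far above its group for 3 members. It had 529000 RPKM of SMED30032887 against 192000 to 241000 RPKM, 9350 RPKM of SMED30026225 against 4130 to 4490 RPKM, and 7180 RPKM of SMED30029899 against 4580 to 5020 RPKM. SMED30002931 was far above its group in replicate 1 of unc22 at day 6, with 7760 RPKM against 2700 to 2870 RPKM, and in replicate 1 of zfp1 RNAi at day 6, with 19200 RPKM against 1970 to 2670 RPKM.

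Replicate 2 of unc22 at day 9 was above its group for SMED30013735, with 14300 RPKM against 10400 to 10900 RPKM, and for SMED30027378, with 5060 RPKM against 3970 to 4130 RPKM. Replicate 4 of p53 RNAi at day 9 was below its group for SMED30013735, with 6050 RPKM against 9320 to 9970 RPKM, and for SMED30016163, with 1380 RPKM against 2440 to 2460 RPKM.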

How the results depend on the processing

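Limits. With 4 libraries a group or fewer, the median SE of a member's log2 difference was 0.24 for p53 RNAi at day 13, and the number of calls moved with the scaling and with single libraries. The members' median stayed negative under every scaling for p53 RNAi at day 13, though it was -0.06 with total reads as library size. Causes of the changes below were not tested unless given.

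The counts of called members were 1, 0 and 4 for zfp1 RNAi against control on days 6, 9 and 13, 0, 3 and 41 for p53 RNAi, 16 for zfp1 against p53 RNAi at day 13, and 4, 2 and 6 between days 6 and 13 for unc22, zfp1 and p53. Both other pseudocounts and limma-voom left every count within 1.5 times. Without a filter, counts became 2 for zfp1 RNAi at day 13, 2 for the unc22 days and 1 for the zfp1 days, with more transcripts tested. Median-ratio scaling gave 23 for p53 RNAi and 2 for zfp1 RNAi at day 13. Scaling by all other transcripts gave 0 for zfp1 RNAi at day 6, 8 and 12 for p53 RNAi on days 9 and 13, 9 for zfp1 against p53 RNAi at day 13, 1 for the zfp1 days and 2 for the interaction of zfp1 RNAi and day. RPKM with total reads as library size gave 0 for zfp1 RNAi at day 6, 8 and 10 for p53 RNAi on days 9 and 13, 8 for zfp1 against p53 RNAi at day 13, 10, 1 and 13 for the unc22, zfp1 and p53 days, and 2 for the interaction of zfp1 RNAi and day. Of the 41 members called lower for p53 RNAi at day 13, 3 changed sign under it, SMED30014560 to 0.03, SMED30024887 to 0.05 and SMED30035193 to 0.02. Fits on the compared groups alone, which have fewer libraries, gave 0 for zfp1 RNAi on days 6 and 13, 1 and 8 for p53 RNAi on days 9 and 13, 7 for zfp1 against p53 RNAi at day 13, 0, 0 and 29 for the unc22, zfp1 and p53 days, and 3 for the interaction of p53 RNAi and day.

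With the replicate block, counts were 2 and 7 for zfp1 RNAi on days 6 and 13, 9 and 18 for p53 RNAi on days 9 and 13, 1 for zfp1 against p53 RNAi at day 9, 12 for the p53 days and 1 for the interaction of zfp1 RNAi and day. The values do not settle whether same-numbered libraries are paired in any comparison. Without the 3 libraries, counts were 8 for zfp1 RNAi at day 6, 56 and 22 for p53 RNAi on days 9 and 13, 5 for zfp1 against p53 RNAi at day 9, 2, 15 and 21 for the unc22, zfp1 and p53 days, and 3 for the interaction of zfp1 RNAi and day.

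Leaving out each library in turn gave 0 to 1 calls for zfp1 RNAi at day 6, 1 to 6 at day 13, 2 to 22 for p53 RNAi at day 9, 6 to 78 at day 13, 6 to 32 for zfp1 against p53 RNAi at day 13, 0 to 9, 1 to 33 and 4 to 10 for the unc22, zfp1 and p53 days, and 0 to 1 for each interaction. The highest counts for p53 RNAi on days 9 and 13 and for the zfp1 and p53 days came without replicate 1 of zfp1 RNAi at day 6.

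No comparison of shares passed adjustment. Those of zfp1 RNAi with control at day 6 (1.42 points) turned to -0.474 without the most abundant transcript and to -1.38 without the 3 libraries, and that of zfp1 with p53 RNAi at day 6 (1.94 points) to -0.859 without them. Leaving out 1 library gave -1.38 to 2.61 and -0.859 to 3.48 for these, -2.05 to 0.226 for p53 RNAi at day 6, where replicate 2 of p53 turned the sign, and -3.16 to 0.792 for zfp1 RNAi at day 13, where replicate 5 of unc22 did. In the other 8 comparisons of shares no left-out library changed the sign.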
